A study of Homo sapiens with 4 samples.

Results

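The neurotransmitter receptor genes are the protein-coding genes whose symbols name a subunit of a GABA-A, GABA-B, AMPA, kainate, NMDA or glycine receptor, or a metabotropic glutamate, nicotinic, muscarinic, serotonin, dopamine or adrenergic receptor. Membership was set by symbol alone, without any measured value, and 101 of 19689 protein-coding genes of GENCODE release 44 met it. Of these, 60 encode subunits of ligand-gated ion channels and 41 encode G protein-coupled receptors. The largest families were the GABA-A (19 genes) and nicotinic (16 genes) subunits.

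These proteins sit in the cell membrane and turn a released transmitter into an electrical or chemical signal. Channels built from several subunits let ions through within milliseconds. The GABA-A, glycine, nicotinic and 5-HT3 subunits form the Cys-loop family, and the AMPA, kainate and NMDA subunits form the ionotropic glutamate family. The G protein-coupled receptors act more slowly through second messengers. Most are neuronal genes, while adrenergic and muscarinic receptors also serve the autonomic control of the prostate and other organs. Neuroendocrine-like prostate cancers are described as taking on neuronal features, so the accessibility of these genes was compared between the lines.

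The assay was ATAC-seq, which reads out accessible chromatin from the places where the transposase Tn5 could insert sequencing adapters. C4-2B is a human prostate adenocarcinoma line, and C4-2BER is a neuroendocrine-like, enzalutamide-resistant line derived from it and kept in enzalutamide, an inhibitor of androgen receptor signalling. Each line had 2 libraries, which the authors merged before calling peaks, so that there was 1 peak list per line. No spread between libraries could therefore be measured, no test between the lines was possible, and line, drug exposure and library preparation cannot be told apart. Nor can fewer cells with an open site be told apart from less opening per cell, since each list is an average over a culture. The C4-2B list held 149676 peaks and the C4-2BER list 118728 peaks, from recovered depths of 30.2 M and 25.2 M reads. The presence of a promoter peak could not check the labels, as 8 of 8 luminal and 8 of 8 neuroendocrine markers had one in each list. KLK3, the prostate-specific antigen gene, had 171 reads (C4-2B) and 45 reads (C4-2BER) at its strongest promoter summit. SRRM4, a neuronal splicing factor, had 17 and 100 reads.

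A promoter was taken as 2000 bp on either side of any transcription start site, and it counted as accessible where it overlapped a peak. Of the 101 receptor genes, 72 (71.3%, Wilson 95% interval 61.8 to 79.2%) carried one in each list, against 77.7% of all protein-coding genes. A promoter peak in the C4-2BER list only was found for 4 genes (3.96%, 1.55 to 9.74%), against 3.39% of all genes. In the C4-2B list only it was found for 6 genes (5.94%, 2.75 to 12.4%), against 2.83% of all genes. The other 19 (18.8%, 12.4 to 27.5%) had none in either list, against 16.0% of all genes. In all 4 classes the interval included the share over all genes, for the lists as deposited. Intervals here and below cover counting error only, and sequencing reads are not independent molecules.

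Every alpha and beta adrenergic, muscarinic, glycine and GABA-B receptor gene had promoter peaks in each list, and so did 34 of the 41 G protein-coupled receptor genes. Among the channels it was 38 of 60. The genes with no promoter peak in either list were GRIA1, GRIA3, GABRA3, GABRA4, GABRA6, GABRG1, GABRR1, GABRR3, GRIN2C, GRM6, DRD4, DRD5, CHRNA9, CHRNG, HTR1B, HTR2C, HTR6, HTR3C and HTR3D. This group spans the AMPA, GABA-A, NMDA, metabotropic glutamate, dopamine, nicotinic and serotonin families, and includes the fetal muscle subunit CHRNG and the cerebellar GABA-A subunit GABRA6. The shares differed with the CpG ratio around the canonical start site, which is the CpG count over that expected from the C and G counts. In the 25% of genes with the lowest CpG ratio 15 of 29 receptor genes (51.7%, 34.4 to 68.6%) and 39.2% of all genes had promoter peaks in each list. In the next-to-highest class of CpG ratio 4 of 28 (14.3%, 5.70 to 31.5%) had none in either, against 2.86% of all genes. Shares were computed for every class of CpG ratio and every list category, and only these are given.

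The 4 receptor promoters with a peak in the C4-2BER list only belong to GRIK1 and GRIK3, kainate receptor subunits, GRM5, a Gq-coupled metabotropic glutamate receptor, and CHRNB4, the nicotinic beta subunit that pairs with CHRNA3 in autonomic ganglia. GRIK1 had 24 reads at a summit at −38 bp from the start site (chr21:29939550-29940271, hg38), and the nearest C4-2B peak lay 89505 bp away. GRIK3 had 21 reads at a summit at −10 bp (chr1:37034408-37034661), with a C4-2B peak 3614 bp away. GRM5 had 21 reads at a summit at 24 bp (chr11:89065770-89066076), and the nearest C4-2B peak was 31955 bp away. CHRNB4 had 15 reads at a summit at −8 bp (chr15:78640874-78641312), with a C4-2B peak 1878 bp from it. These were peaks of modest height, at rank percentiles of 63.3, 28.8, 54.7 and 18.3 within the C4-2BER list, where the percentile is the place of a peak by its −log10 p. All 4 summits lay within 200 bp of a start site, as did 60.1% of the summits of the 667 genes with a promoter peak in the C4-2BER list only.

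The 100 bases upstream of the Ensembl canonical start site of these 4 genes are shown because the C4-2BER peaks overlapped them. They are hg38 reference sequence, all on the minus strand, written 5′ to 3′ with CpG dinucleotides in capitals. The stretches are chr21:29939997-29940096 for GRIK1, chr1:37034516-37034615 for GRIK3, chr11:89065983-89066082 for GRM5 and chr15:78641211-78641310 for CHRNB4.
GRIK1: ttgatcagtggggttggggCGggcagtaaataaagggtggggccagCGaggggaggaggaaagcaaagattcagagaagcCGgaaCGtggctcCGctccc
GRIK3: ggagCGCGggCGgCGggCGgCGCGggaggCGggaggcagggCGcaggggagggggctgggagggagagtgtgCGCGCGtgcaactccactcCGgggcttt
GRM5: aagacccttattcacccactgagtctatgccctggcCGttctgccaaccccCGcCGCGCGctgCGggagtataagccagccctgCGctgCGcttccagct
CHRNB4: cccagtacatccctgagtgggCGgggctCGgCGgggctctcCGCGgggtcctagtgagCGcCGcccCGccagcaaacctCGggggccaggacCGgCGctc
CpG dinucleotides numbered 5 for GRIK1, 13 for GRIK3, 8 for GRM5 and 11 for CHRNB4 in these 100 bases. Their GC content was 60%, 79%, 64% and 76%.

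The 6 promoters with a peak in the C4-2B list only were mostly marked farther from the start site. CHRNA4, the alpha subunit that pairs with CHRNB2 in the brain, had 3 such peaks, the strongest with 44 reads at a summit at −684 bp (chr20:63361890-63362166) and the nearest to the start site with 25 reads at −75 bp. The strongest ranked at the 43.6 percentile of the C4-2B list. CHRNA10, a subunit of the cochlear nicotinic receptor, had 18 reads at a summit at 1271 bp. GRIN2B, the GluN2B subunit of NMDA receptors, had 18 reads at a summit at 2127 bp, and that peak overlapped a C4-2BER peak just outside the promoter window. HTR3E, a 5-HT3 subunit, had 17 reads at a summit at 10 bp. CHRNB3, an accessory nicotinic subunit, had 16 reads at a summit at 1561 bp, and GABRR2, a rho subunit of GABA-A receptors, had 12 reads at a summit at −322 bp. Of these 6 strongest summits, 1 lay within 200 bp of a start site, against 26.6% of the 557 genes of this class.

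The one-list calls depended on how peaks were chosen. Under 10 other choices of peak or window, GRIK1 kept its call in 10, GRM5 and CHRNA4 in 9, GRIK3 and HTR3E in 6, CHRNB4, CHRNA10 and CHRNB3 in 5, GABRR2 in 4 and GRIN2B in 3, and none of them changed to the opposite list. With the strongest 50000 peaks of each list, 17 receptor promoters (16.8%, 10.8 to 25.3%) had a peak in C4-2BER only, against 6.86% of all genes, and 2 (1.98%, 0.545 to 6.93%) in C4-2B only, against 1.15%. With these peaks 42 of the 101 receptor genes had promoter peaks in each list, against 66.3% of all genes, and 40 had none, against 25.7%. Receptor promoters were weak. Of the 72 with peaks in each full list, 51 were in the lowest 25% of all genes by the reads of both lists summed. The counts with the strongest 50000 peaks were not set against genes of like promoter strength. The 17 included GLRA1, GLRA3, GLRB, GABRA2, GABRB1, GABRD, GABRP, GABRQ, GRIK1, GRM4, GRM7 and 3 adrenergic or dopamine receptor genes, ADRA1B, ADRA2A and DRD1.

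Peaks were next scored by whether they covered a start site itself, a measure added after the promoter counts had been seen. A peak over a start site was present in the C4-2BER list only for 12 receptor genes (11.9%, 6.93 to 19.6%), against 4.99% of all genes. Among the 12 were the channel subunits GRIK1, GRIK3, GRIN2D, CHRNA3, CHRNB4 and GABRQ and the G protein-coupled receptors GRM5, CHRM2, ADRA1D, HTR1A and HTR1F. In the C4-2B list only it was present for 4 (3.96%, 1.55 to 9.74%), against 1.64%, namely CHRNA4, DRD1, GRIN3B and HTR3E. For the canonical start site alone the counts were 15 (14.9%, 9.21 to 23.1%) against 5.51% of all genes, and 3 (2.97%, 1.02 to 8.37%) against 1.31%.

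Promoter strength moved with this count. Among genes in the lowest 25% of summed promoter reads or with a promoter peak in 1 list, a start site was covered in C4-2BER only for 11 of 61 receptor genes (18%) and for 17.4% of all 5054 genes of that class. These shares were close, but the class is partly set by the outcome, since it takes in every gene with a promoter peak in C4-2BER only. Such genes were 4 of the 61 and 667 of the 5054. The class therefore cannot show how receptor genes compare with genes of like promoter strength. Among genes with more promoter reads it was 1 of 21 (4.76%) and 0.906%.

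**Figure D1:**
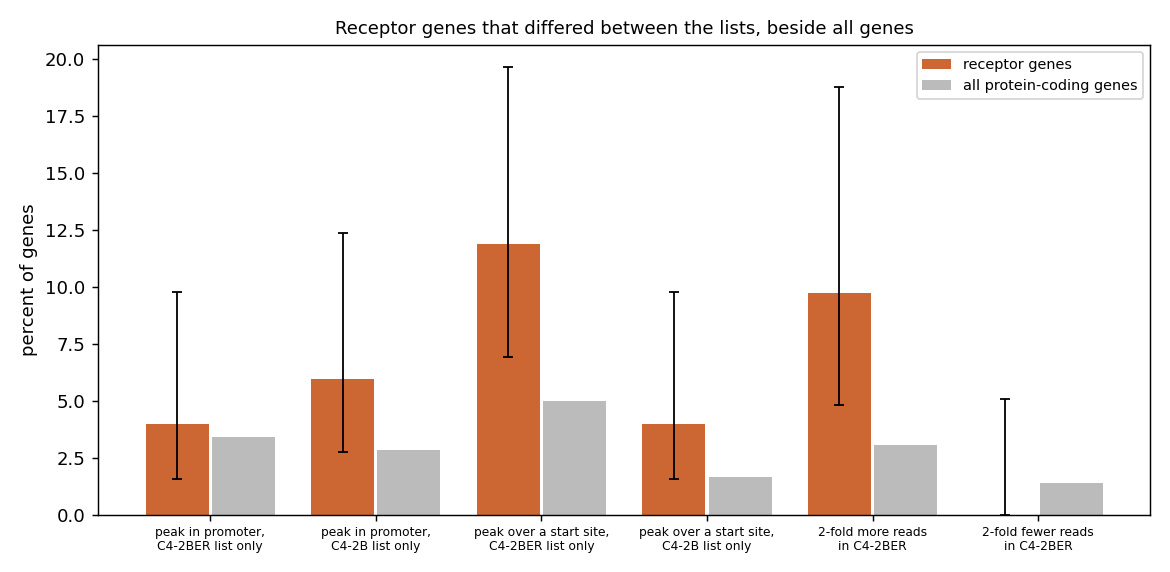
Percent of genes (y axis) that met each criterion named on the x axis, for the receptor genes (orange, with Wilson 95% intervals) and for all protein-coding genes (grey). The first 4 pairs are over 101 and 19689 genes and the last 2 over the 72 and 15305 genes with a promoter peak in both lists. Receptor genes reached 11.9% for a start site covered in C4-2BER only and 9.72% for at least 2-fold more reads in C4-2BER.

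For the 72 receptor genes with promoter peaks in each list, reads at the strongest promoter summit were compared after scaling to the recovered depth. Their median C4-2BER to C4-2B ratio was 1.12 (quartiles 0.917 and 1.5), against 1.10 (1.00 and 1.2) over 15305 genes, so the middle was alike and the spread wider. A ratio of at least 2 was found for 7 of the 72 (9.72%, 4.79 to 18.7%), against 3.06% of all genes, and a ratio of 0.5 or less for 0, which allows a share of up to 4.17% by a limit of 3 counts and 5.07% by the Wilson interval, against 1.39%.

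The receptor genes had low promoter read counts, and ratios scatter more there. In the lowest 10% of summed promoter reads (19 to 76 reads) 5 of 26 receptor genes and 14.5% of all genes reached 2-fold. Between the lowest 10% and the lowest 25% (77 to 147 reads) it was 2 of 25 and 8.61%. Above the lowest 25% it was 0 of 21 receptor genes. Read against genes of like promoter strength, the count of 7 was thus less apart from the background than against all genes.

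Of the 7, 6 were Cys-loop channel subunits for GABA or glycine. GLRA3, a glycine receptor alpha subunit, had 30 reads in C4-2B against 79 in C4-2BER, a ratio of 3.15 (exact Poisson 95% interval 2.05 to 4.97). GLRB, the beta subunit that anchors glycine receptors to gephyrin, had 16 and 28 reads (2.09, 1.09 to 4.14). GLRA1 and GLRA2 followed with 28 against 32 reads (1.37, 0.798 to 2.36) and 15 against 19 reads (1.52, 0.730 to 3.20). All 4 glycine receptor genes thus had ratios over 1, with a median of 1.8. A ratio over 1 was found for 74.9% of all genes and 63.9% of the receptor genes with promoter peaks in each list. All ratios were also over 1 in the metabotropic glutamate (6 genes, median 1.12), kainate (3 genes, 1.29) and AMPA (2 genes, 1.44) families. The intervals of GLRA1 and GLRA2 include 1, and their summits lay 665 and 682 bp apart between the lists.

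The GABA-A family supplied 4 of the 7. GABRB2 had 14 and 30 reads (2.56, 1.32 to 5.23). GABRQ, the theta subunit, had 21 and 44 (2.51, 1.46 to 4.44). GABRA2 had 20 and 38 (2.27, 1.29 to 4.12), and GABRB1 had 36 and 66 (2.19, 1.44 to 3.39). Of the 12 GABA-A ratios 5 were above 1, where 74.9% of all genes were, and the family median was 0.964. GABRA2 and GABRB1 lie in the same 4p12 cluster, and GLRA3 and GLRB are on the same chromosome. The 6 receptor genes with a ratio on chromosome 4 had a median of 2.14 where all 575 genes of the chromosome had 1.105. As 4 of these 6 were already chosen for a ratio of at least 2, that choice partly set the median of 2.14. Other genes within 5 Mb of these 4 had median ratios of 1.03 to 1.17.

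The seventh was CHRM2, the Gi-coupled muscarinic receptor of heart and smooth muscle, with 10 and 21 reads (2.51, 1.13 to 5.98). The eighth highest ratio, just under 2-fold, was that of HTR1E, a Gi-coupled serotonin receptor, with 12 and 20 reads (1.99, 0.928 to 4.47).

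In 59 of the 72 genes the strongest summits of the lists lay within 500 bp of each other. For CHRM2, GABRB2 and GABRQ the strongest summits of the lists were not at the same place. The CHRM2 summit was at 1423 bp in C4-2B and at 50 bp in C4-2BER. That of GABRQ was at −1781 bp and at −37 bp, and that of GABRB2 at −130 bp and at −1071 bp. Where summits had to lie within 500 bp of each other, 4 genes kept a 2-fold ratio, namely GLRA3, GLRB, GABRA2 and GABRB1.

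The 2-fold calls rested on the scale used. With the deposited fold enrichment, which sets reads against the local background, 0 of the 72 reached 2-fold, against 0.647% of all genes. The median ratio on that scale was 0.991 for the receptor genes and 0.970 for all genes. The local background was itself higher in C4-2BER at several of these genes, with 2.24 and 4.24 reads per 200 bp at GLRA3, 3.42 and 5.2 at GABRB1 and 2.24 and 3.64 at GABRA2. By fold enrichment GLRA3 stood at 1.59, GLRB at 1.77, CHRM2 at 1.99 and GABRA2 at 1.3.

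At the other end of the order, HTR2B, a Gq-coupled serotonin receptor, had 24 reads in C4-2B against 11 in C4-2BER (0.548, 0.242 to 1.16). CHRM5, a Gq-coupled muscarinic receptor, had 46 and 22 (0.572, 0.328 to 0.971), and CHRNA2, a nicotinic alpha subunit, had 102 and 61 (0.716, 0.512 to 0.992). By fold enrichment CHRNA2 was at 1.2, GRIN3A at 1.23 and ADRB1 at 1.04, so that the direction of these 3 of the 8 lowest turned. The others of the 8 lowest were HTR4, a Gs-coupled serotonin receptor (36 and 22 reads, 0.731), GRIN3A (90 and 58 reads, 0.771), GRIN1, the obligatory NMDA subunit (68 and 45 reads, 0.792), ADRB1, the cardiac beta receptor (111 and 75 reads, 0.808), and CHRNA6 (29 and 20 reads, 0.825). The intervals of these 5 include 1. The GRIN1 counts come from different sites, with summits at 90 bp in C4-2B and at −1854 bp in C4-2BER, and with windows of 1000 bp the ratio was 0.616.

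Among the strongest receptor promoters of either list were those of CHRNA5, HTR5A, CHRNB2, CHRM3 and ADRA1A. CHRNA5, an accessory nicotinic subunit, had 166 reads in C4-2B against 122 in C4-2BER, at percentiles 98.8 and 95.5, a ratio of 0.879 (0.690 to 1.12). HTR5A, a Gi-coupled serotonin receptor, had 111 and 80 reads (95.2 and 92.9, ratio 0.862). Next in C4-2B came CHRNB2, the beta subunit of the main brain nicotinic receptor, with 108 and 89 reads, a ratio of 0.986 (0.736 to 1.32). In C4-2BER, CHRM3, the muscarinic receptor of glands and smooth muscle, and ADRA1A, the main alpha receptor of the prostate stroma, entered the first 5. CHRM3 had 92 and 115 reads (1.5, 1.13 to 1.99), and ADRA1A had 67 and 87 (1.55, 1.12 to 2.17).

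**Figure D2:**
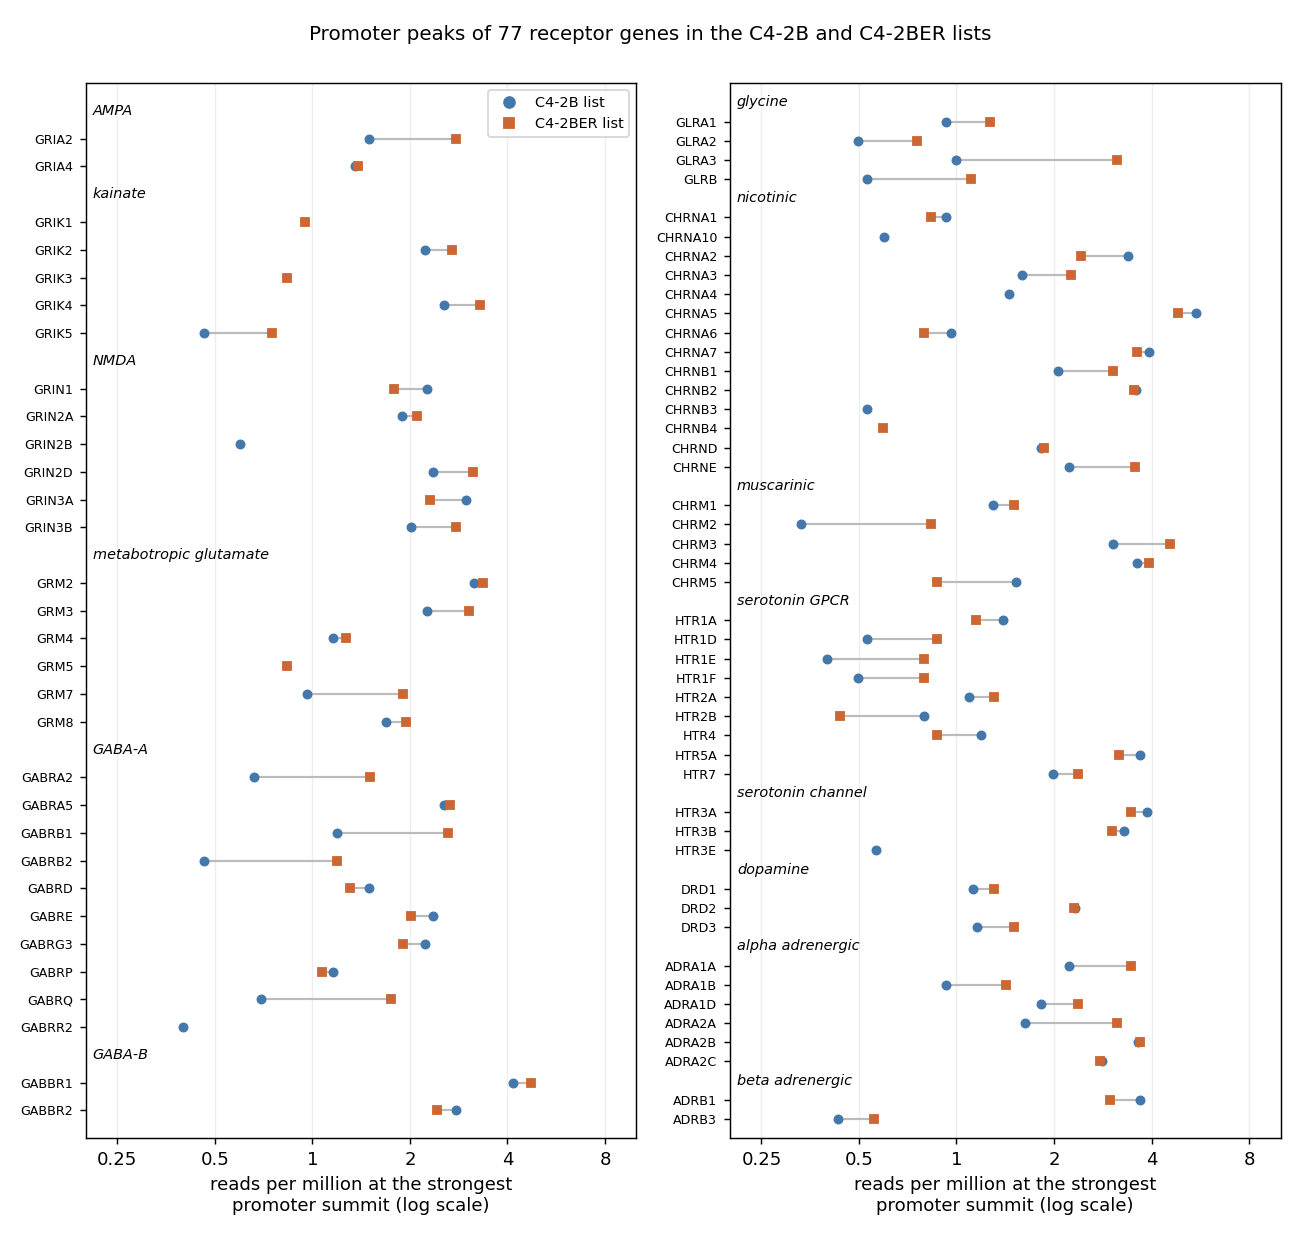
Reads per M of depth at the strongest promoter summit (x axis, log scale) for 77 of the receptor genes with a promoter peak, by family, in the C4-2B list (blue circles) and the C4-2BER list (orange squares). A grey line joins the lists where both had a peak, and a lone symbol marks a gene with a peak in that list only. The glycine receptor genes all lie to the right in C4-2BER, with GLRA3 at 30 and 79 reads the farthest. So do the AMPA, kainate and metabotropic glutamate genes drawn with both symbols.

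The length of promoter covered by peaks was a further measure chosen after the first results. Over the 72 genes the median was 816 bp in C4-2B and 965 bp in C4-2BER, and over all genes 1222 and 1259 bp. At least 2 times as many bases were covered in C4-2BER at 13 receptor promoters (18.1%), against 3.13% of all genes, and in C4-2B at 0, against 1.46%. GLRA2 went from 200 to 825 bp, GLRA1 from 343 to 1194 bp, GRIA4, an AMPA subunit, from 442 to 1489 bp and CHRNB1, the muscle nicotinic beta subunit, from 802 to 1965 bp. In the lowest 25% of promoter reads the share was 12 of 51 receptor genes (23.5%) against 10.8% of all genes. These promoters were wider in the C4-2BER list also where the summit ratio was close to 1, as at GRIA4 (41 and 35 reads, 1.02).

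Promoter peaks were searched for the RE1 element, the binding sequence of the repressor REST, which silences many neuronal genes outside the nervous system. It was spelled TTCAGCACC and GGACAGCGC with 2 bases between, read on both strands with up to 4 mismatches over the 18 letters. In C4-2B 20 of 125 receptor promoter peaks held a match (16.0%, 10.6 to 23.4%), against 2.98% of all promoter peaks. In C4-2BER it was 18 of 139 (12.95%, 8.35 to 19.5%), against 3.05%. With up to 3 mismatches the shares were 12.8% against 1.00% and 10.1% against 0.947%. With 5 they were 24.8% against 14.95% and 21.6% against 15.9%, nearer to the background. A match is a sequence and does not show that the factor was bound.

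The 4 sites with at most 1 mismatch, and 4 of the 10 with 2 mismatches, are shown to let the likeness be seen, with 5 bases of hg38 reference on either side. Each is written 5′ to 3′ on the strand of the match, with the 20-base site in capitals. The sites are at chr1:154567954-154567973 (plus strand) for CHRNB2, chr4:157220389-157220408 (minus) for GRIA2, chr9:137139260-137139279 (plus) for GRIN1 and chr6:101396742-101396761 (minus) for GRIK2. Those of GLRA3, GLRA1, DRD3 and HTR5A are at chr4:174828936-174828955 (plus), chr5:151924754-151924773 (plus), chr3:114178963-114178982 (minus) and chr7:155070080-155070099 (plus).
CHRNB2: gcggcTTCAGCACCACGGACAGCGCcccac
GRIA2: ggcctTTCAGCACCGAGGACAGCGCctcgc
GRIN1: cccgcTTCAGCACCGCGGACAGCGCcggcc
GRIK2: ctttcTTCAGGACCACGGACAGCGCtcctg
GLRA3: gaagcTTCAGCACCTTAGACAGCTCcccgc
GLRA1: ggcgtTTCAGCACCACGGAGAGCGTccaga
DRD3: cctctTTCAGCACCAAGGACAGAACctctg
HTR5A: agagaGGCAGCACCGTGGACAGCGCcaacc
CHRNB2, GRIA2 and GRIN1 had 0 mismatches, GRIK2 had 1, and the other 4 had 2. In the canonical transcripts the sites of CHRNB2, GRIN1, GLRA3, GLRA1 and DRD3 lie in a 5′ UTR exon, that of GRIK2 in intron 1, and those of GRIA2 and HTR5A upstream.

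In all, 19 receptor genes had a match in a promoter peak. Besides these 8 they included CHRM4, DRD2, GRM8 and HTR1A with 2 mismatches, GRIN3A with 3, and GABBR2, GLRB and HTR3B with 4. The peaks over the sites of GRIK2 (25 reads) and GRIN3A (43 reads) were in the C4-2B list only, and the 18 other sites lay in peaks of both lists. The GRIK2 site itself was at −2037 bp from the nearest start site, beyond the promoter window, in a peak that reached into the window. By its summit that peak was also counted among the gene body peaks outside promoters.

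Promoter reads of the genes with a match did not move one way. The median ratio was 0.991 for these 19 (0.771 to 3.15) and 1.17 for the 53 others with a ratio. CHRNB2, GRIN1 and GRIA2, each with a perfect site, had promoter ratios of 0.986, 0.792 and 1.86 (GRIA2 from 45 to 70 reads, interval 1.26 to 2.77). The site of GRIN1 lay under a peak of 68 reads in C4-2B against 33 in C4-2BER. Independent of any peak, 12 of the 101 receptor genes (11.9%, 6.93 to 19.6%) and 0.467% of all genes had a site with up to 2 mismatches within 1000 bp of the canonical start site. All 12 had a promoter peak in both lists, as did 86 of the 92 genes with such a site (93.5%).

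**Figure D3:**
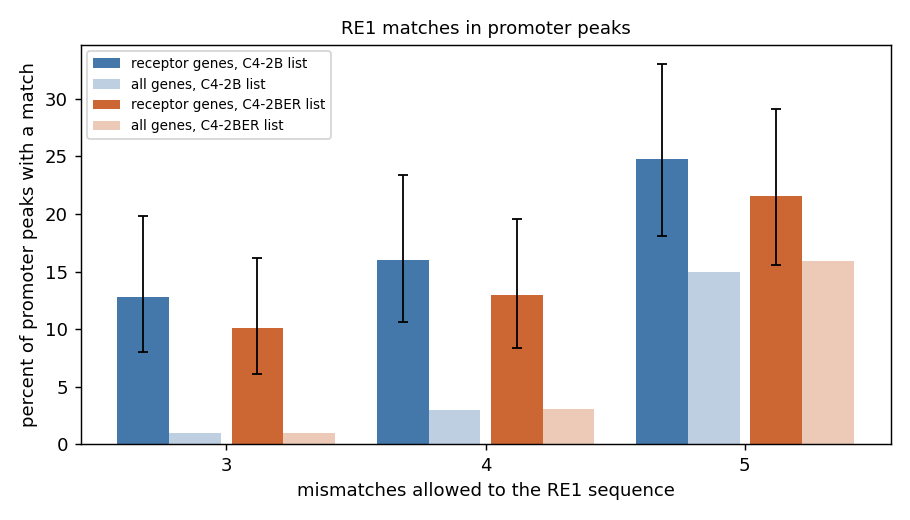
Percent of promoter peaks with an RE1 match (y axis) by the number of mismatches allowed (x axis), for receptor genes (dark bars, Wilson 95% intervals) and all protein-coding genes (pale bars) in the C4-2B (blue) and C4-2BER (orange) lists. With 4 mismatches the receptor shares were 16.0% and 12.95% against 2.98% and 3.05%.

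Gene bodies were then scored. A peak overlapped the body of 86 receptor genes in both lists (84.5% of all genes), of 1 in C4-2BER only (1.85% of all genes), of 5 in C4-2B only (2.25%) and of 9 in neither (11.4%). The gene with a body peak in C4-2BER only was CHRNA9, a cochlear nicotinic subunit, and the 5 in C4-2B only were GRIN3B, GRM6, CHRNA10, HTR3D and HTR3E. These counts sit near the background for the lists as deposited. With the top 50000 peaks they were 54 in both (74.1% of all genes), 17 in C4-2BER only (5.19%), 2 in C4-2B only (1.78%) and 28 in neither (18.9%). These too were not set against genes with peaks of like strength. By length, 47.5% of the receptor genes belong to the longest 25% of genes, with a median length of 60.8 kb against 27.3 kb.

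Receptor gene bodies held 628 distinct C4-2B peaks, of which 249 (39.6%, 35.9 to 43.5%) did not overlap a C4-2BER peak, against 35.3% over all gene bodies. They held 502 C4-2BER peaks, of which 109 (21.7%, 18.3 to 25.5%) did not overlap a C4-2B peak, against 18.6%. Peaks of 1 gene are not independent, so intervals on shares of peaks, here and elsewhere, do not cover the spread between genes. Outside promoters the shares were 44.2% against 42.7% and 21.0% against 21.4%. The shares were thus near those of genes in general, and nearer outside promoters. The C4-2B library pool was 1.2 times deeper. With C4-2B scaled to the depth of C4-2BER the shares were 39.5% and 21.7%. With equal numbers of top peaks they were 29.9% and 31.3%, and with the top 50000 peaks of each list 36.1% and 44.6%. The higher share in C4-2B thus depended on the sizes of the lists.

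The genes with the most C4-2B-only peaks were long ones. CHRM3 had 19 of its 31 C4-2B peaks in that list only, GRM7, a presynaptic metabotropic glutamate receptor, 19 of 38, GABRG3 17 of 32, the kainate subunit GRIK2 15 of 24, and GRIK4 and GRM8 each 14, of 40 and 28. The most C4-2BER-only peaks were in GRM8, with 9 of its 23 C4-2BER peaks, GRM7 with 8 of 27 and GRIK2 with 5 of 15. CHRM3, GRIA4, GRIK5 and GRM3 had 4 each.

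In the 4p12 cluster of GABRG1, GABRA2, GABRA4 and GABRB1, 3 of 19 C4-2B peaks (15.8%, 5.52 to 37.6%) and 5 of 21 C4-2BER peaks (23.8%, 10.6 to 45.1%) were in 1 list only. Over chromosome 4 the shares were 41.2% and 22.2%, and over the genome 37.7% and 20.8%. In the 1 Mb before the cluster they were 40% and 20%, and in the 1 Mb after it 31.7% and 10.4%. Several other receptor gene clusters were scored as well. Their C4-2B-only counts ran from 0 of 2 peaks in 6q15 to 10 of 16 in Xq28.

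Peaks shared by the lists also differed in reads. This was examined after the peak counts. Outside promoters, 289 C4-2B peaks in receptor gene bodies overlapped a C4-2BER peak, with a median ratio of 0.897 (quartiles 0.612 and 1.2), against 0.788 over 35512 such peaks in all genes. A ratio of 0.5 or less was found for 48 (16.6%, 12.8 to 21.3%), against 18.6%, and of 2 or more for 12 (4.15%, 2.39 to 7.12%), against 2.55%. Both shares were near the background.

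The most extreme intragenic sites had ratios farther from 1 than any receptor promoter (0.548 to 3.15). They come from 289 pairs of peaks, against 72 promoters. A pair needed an overlap of only 1 bp, and the distance between its summits was not checked. In intron 5 of GABRG3 a site had 123 reads in C4-2B against 18 in C4-2BER (chr15:27398514-27399084, ratio 0.175, 0.100 to 0.288). A second site in the same intron had 64 and 10 reads (0.187, 0.0856 to 0.367). In intron 13 of GABBR2, the GABA-B subunit that couples to G proteins, a site had 81 and 11 reads (chr9:98331877-98332867, 0.162, 0.0780 to 0.306). In intron 2 of GRM7 a site had 147 and 25 reads (chr3:7160131-7161337, 0.203, 0.128 to 0.312), and in intron 6 of CHRM3 a site had 54 and 9 (0.199, 0.0866 to 0.407). These genes are not alike in their promoters, since CHRM3 and GRM7 had promoter ratios of 1.5 and 1.98 while GABRG3 and GABBR2 had 0.857 and 0.869. The GRM7 summits of the lists lay at different start sites, 541190 bp apart.

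Gains inside genes were fewer. In intron 3 of GRIN2D, an NMDA subunit, a pair of C4-2B peaks with 27 and 33 reads lay under 1 C4-2BER peak with 123 reads (chr19:48399637-48400703, ratios 5.45, 3.57 to 8.60, and 4.46, 3.02 to 6.76). In intron 2 of GABRR2 a site had 17 and 47 reads (3.31, 1.86 to 6.15), and in intron 6 of GRM4 a site had 46 and 115 (chr6:34056212-34056627, 2.99, 2.11 to 4.31). GABRR2 therefore had its promoter peak in C4-2B only and an intronic site that was higher in C4-2BER. The strongest GRIN2D promoter summits, at −2098 and −2104 bp, also lay in the promoter of KDELR1, and a peak of 47 reads over the GRIN2D start site was in the C4-2BER list only.

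Motifs were also searched within 100 bp of the intragenic summits outside promoters. The forkhead sequence TGTTTAC was present at 11.8% of the 229 C4-2B-only peaks outside promoters, against 12% of such peaks in all genes, and the E-box CAGCTG at 12.2% against 12.7%. An androgen response element, AGAACA and TGTTCT with 3 bases between and up to 1 mismatch, was found at 0 of 229 (0 to 1.65%), against 0.841%. The PAX5 core GCGTGAC was present at 1 of the 80 C4-2BER-only peaks (1.25%), against 0.678%, and the PBX-HOX sequence TGATTNAT at 2 (2.50%), against 3.43%. At peaks that overlapped the other list the PAX5 core was present at 5 of 289 in C4-2B (1.73%, 0.741 to 3.99%), against 0.645%, and at 5 of 301 in C4-2BER (1.66%, 0.712 to 3.83%), against 0.634%. Both intervals lie above the share over all peaks, for 2 of the 20 shares computed, and as each of these peaks overlaps a peak of the other list the 2 shares are not independent. All were read on both strands, and none of these sequences is contained in another.

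Of 55 other genes of the same synapses (transmitter synthesis, transport, scaffolds and breakdown), 44 had promoter peaks in each list (77.7% of all genes), 4 in C4-2BER only (3.39%), 2 in C4-2B only (2.83%) and 5 in neither (16.0%). The 4 were SLC17A8, a vesicular glutamate transporter (9 reads), SHANK1, a postsynaptic scaffold (16 reads), TMEM35A, a chaperone of nicotinic receptors (15 reads), and MAOB, a monoamine oxidase (23 reads). The 2 were SLC32A1, the vesicular GABA and glycine transporter (22 reads), and CACNG8, an AMPA receptor auxiliary subunit (9 reads). Against 3.06% of all genes and 9.72% of the receptor genes, 6 of these 44 had at least 2-fold more promoter reads in C4-2BER (among them DDC at 3.72, ACHE at 3.17, SLC6A3 at 3.08 and GRID1 at 2.55) and 0 at least 2-fold fewer, with a median ratio of 1.03.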

How the data were processed

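ATAC-seq peak lists of C4-2B and C4-2BER cells (2 libraries each) were used. The authors trimmed the reads, aligned them to hg38 with Bowtie2, removed reads of low mapping quality and duplicates, merged the replicates and ran macs2 with reads extended to 200 bp. The macs2 version is not given in the sources used here. For each summit the deposited lists hold a score (not used), a fold enrichment (the ratio to local background), a −log10 p, a −log10 q and a summit offset.

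Fold and −log10 p together fix the reads and the background of a summit, and whole reads came out within 0.001 in −log10 p for 100% of summits, a step tested on simulated data. The lowest background gave the depths, assuming a genome size of 2700000000 bp in macs2, and their ratio of 1.2, which needs no such size, scaled all read ratios. No summit had over 395 reads, so the strongest peaks may be bounded. Start sites and genes came from GENCODE 44. Peaks were shared where they overlapped by at least 1 bp. Shares carry Wilson intervals and ratios exact conditional Poisson intervals, both at 95%. With 1 list per line there was no test and no p-value.

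The receptor genes and gene lists were chosen with earlier results of these data known. Named by rule were genes with a promoter peak in 1 list only, the 8 highest and 8 lowest ratios, the 5 highest-ranked promoters per list, the 5 genes with the most body peaks of 1 list, all RE1 matches, CHRNB2, and synaptic genes with a promoter peak in 1 list. All other genes were named after their values were seen. Some genes within these rules are not reported here, but counts include them. The alternatives were stricter or equal-sized lists, depth scaling, other windows, overlap rules, read scales and mismatch limits. Python 3.11.15, numpy 2.4.6, pandas 2.3.3, scipy 1.17.1 and pysam 0.24.0 were used.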

Additional observations from a re-analysis of the deposited data

How the results depend on the processing

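No paired analysis was possible because the authors merged the replicates before calling peaks, and for the same reason no replicate could be left out. Of 112 recomputed summary values, 68 stayed within 1.5 times of the reported count, or within the counting interval of a share, and 44 did not. Promoter counts were 72 in both lists, 4 in C4-2BER only, 6 in C4-2B only and 19 in neither. With a −log10 q of at least 10 they were 9 in C4-2BER only and 2 in C4-2B only, and with equal numbers of top peaks 9 were in C4-2BER only. With the top 50000 peaks they were 42, 17, 2 and 40, where all genes had 66.3%, 6.86%, 1.15% and 25.7%, without a background at like promoter strength. With windows of 1000 bp, 7 were in C4-2BER only and 3 in C4-2B only, and with 5000 bp these were 2 and 3, with 11 in neither. Counting strong line-only peaks left 2 and 1. Gene body counts were 86, 1, 5 and 9. In C4-2BER only they rose to 3 with a −log10 q of at least 5 and to 6 with at least 10 (14 in neither), and were 4 with equal numbers (3 in C4-2B only), 17 with the top 50000 (54 in both, 2 in C4-2B only, 28 in neither) and 2 by summit position (17 in neither). Outside promoters, own or any, 3 were in C4-2B only and 29 in neither. The 7 promoters with 2-fold more reads became 0 by fold enrichment and 4 with summits within 500 bp, and 1 was 2-fold lower with the median of all genes set to 1. The share of C4-2B body peaks in C4-2B only was 44.6% with a −log10 q of at least 10, 29.9% with equal numbers, 50.5% with 50% reciprocal overlap and 44.2% outside any promoter. The share of C4-2BER body peaks in C4-2BER only was 31.3% with equal numbers, 44.6% with the top 50000, 38.2% with reciprocal overlap and 17.1% with gaps of up to 500 bp. RE1 matches rose to 31 and 30 with 5 mismatches. Start sites covered in C4-2B only were 2 with equal numbers and 2 with the top 50000, a measure chosen after seeing the data, as were promoter width, the read classes, the fixed RE1 window and the shared intragenic peaks. Scaling C4-2B to the depth of C4-2BER changed no count of genes. By fold enrichment the promoter ratios of CHRNA2, GRIN3A and ADRB1 turned from below 1 to 1.2, 1.23 and 1.04. The cause of these shifts was not tested. The lowest summits held 8 (C4-2B) and 7 reads (C4-2BER), so an uncalled site is not shown to be closed.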
